A study of Mus musculus with 15 samples.

Results

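The genes described here are 10 immediate early genes whose transcription follows neuronal activity: Fos, Fosb, Junb, Egr1, Egr2, Egr4, Arc, Npas4, Nr4a1 and Dusp1. They were chosen by symbol, and each symbol had 1 row among the 30386 genes of a table of read counts from mouse brain. Immediate early genes are transcribed from factors already present in the cell, without new protein synthesis, when synaptic input raises calcium and cyclic AMP. Kinases that this input switches on phosphorylate CREB and the partners of serum response factor, which sit at the promoters of these genes, and the transcripts are short-lived, so their level follows recent activity. Most of them encode transcription factors that act on slower neuronal genes, and Arc and Dusp1 encode proteins that act at synapses and on kinases directly.

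Brain RNA was read from the 3′ end by QuantSeq, which counts about 1 fragment per transcript, so that a count does not in principle scale with transcript length. There were 15 libraries in 3 groups of 5. WT_PBS were wild-type mice given phosphate-buffered saline, Het_PBS were Tbx1+/- mice given the same saline, and Het_B12 were Tbx1+/- mice given vitamin B12 in saline at 20 mg/kg. Tbx1 encodes a T-box transcription factor. All mice received 2 intraperitoneal injections a week for 4 weeks. The labels put their age at 4 weeks, taken here as the age at the start of treatment, and call them adult. Wild types that received B12 were not analysed here, so an effect of the vitamin that does not depend on the genotype cannot be told apart from one that does. The tissue is labelled both as brain and as brain hemisphere, and the labels do not say how long after the last injection it was collected.

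The libraries held between 1683258 and 2746122 counts. A count of 3 reads, taken as the floor of detection, equalled 1.02 to 1.79 CPM (counts scaled to library size with TMM factors), and intervals and floors cover counting error only. Tbx1 itself had 3 reads in WT_PBS, 3 in Het_PBS and 1 in Het_B12, too few to check the genotype labels. The neuronal markers that define brain tissue were all detected, and the summed CPM of 12 pan-neuronal markers ran from 8060 to 9949 over the 15 libraries. Whether each library is a mouse of its own is not stated in the labels, so that p-values measure the spread of libraries. The same animal number stands on Het_PBS 5 and Het_B12 1. Of the 10 genes, 6 passed the filter on low counts (Fosb, Junb, Egr1, Egr4, Arc and Dusp1) and were tested with 11718 genes in all. For Fos, Npas4 and Nr4a1 the values come from a second fit without a filter, over 20468 genes. Egr2, with 18 reads in all, is given by its counts alone.

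The promoters are shown because CREB-binding half-sites are a long-known feature of this class of genes. The RefSeq promoter table (GRCm38.p6) matched 8 of the 10 genes in 12 windows of 250 bases upstream of a start, and Egr1 and Arc were not matched. Each stretch below is 49 bases on the strand of the gene, 5′ to 3′, with capitals for the half-site TGACG or its reverse complement CGTCA.
Fos, chr12:85473802-85473850, plus strand: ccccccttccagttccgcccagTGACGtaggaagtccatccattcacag
Junb, chr8:84978828-84978876, minus strand: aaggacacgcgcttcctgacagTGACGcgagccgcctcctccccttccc
Egr4, chr6:85513672-85513720, minus strand: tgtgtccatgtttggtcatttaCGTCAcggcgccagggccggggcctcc
Npas4, chr19:4990114-4990162, minus strand: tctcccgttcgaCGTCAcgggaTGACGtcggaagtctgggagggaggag
Dusp1, chr17:26508586-26508634, minus strand: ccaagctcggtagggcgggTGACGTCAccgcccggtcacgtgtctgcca
The half-site, searched on both strands, lay in at least 1 window of 8 of 8 matched genes and in 10 of their 12 windows. Windows 3, 4 and 5 of Egr2 matched on the same stretch (chr10:67537792-67537840), so the windows are not all separate sites. The share was 19.8% of all 27025 genes and 17.8% of all 32851 windows. The full palindrome TGACGTCA, which contains both half-sites, was found for 1 of 8 (Dusp1), against 1.77% of all genes. A CArG box, the sequence bound by serum response factor, was found for 1 of 8 (Egr2), against 1.62%, and the sequence TATAAA for 1 of 8 (Fos), against 8.94%. These are matches of letters in the reference, and binding was not measured.

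The sharpest feature of these genes was 1 library and not a group. WT_PBS 3, a wild type given saline, had the highest CPM of all 15 libraries for 8 of the 10 genes: Fos, Junb, Egr1, Egr4, Arc, Npas4, Nr4a1 and Dusp1. Of the 6 members that passed the filter 5 had their highest value in WT_PBS 3, and of all 11718 tested genes 9.76%. The sum of the 10 genes was 351 CPM in WT_PBS 3. It was 128 to 184 CPM in the other 4 wild types, 108 to 165 CPM in Het_PBS and 112 to 204 CPM in Het_B12. This library was singled out after its values were seen, so these figures are a description with no test, and the fold changes of the members against WT_PBS are given below with and without it.

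**Figure D1:**
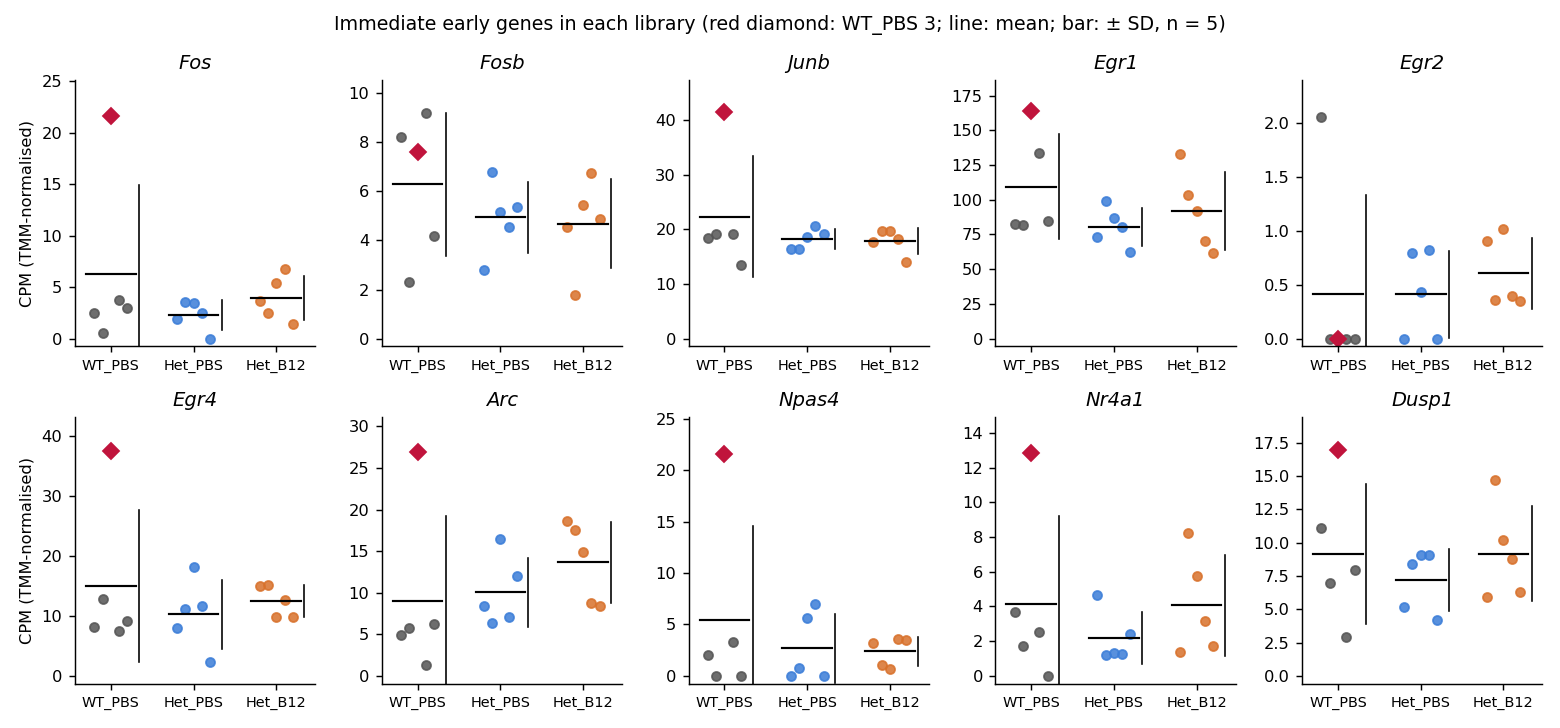
CPM (TMM-normalised, linear axes) of the 10 genes in each of the 15 libraries, by group; points are libraries, lines are group means and vertical bars are ± SD (n = 5), which are clipped at the lower edge of a panel. The red diamond is WT_PBS 3, which lies above all other libraries for 8 genes, within the range of the other libraries for Fosb and at 0 for Egr2.

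Between the 3 groups no immediate early gene passed the test, in any pair of groups or over all 3. With edgeR's quasi-likelihood test at a Benjamini-Hochberg adjusted p under 0.05, 0 of 6 tested genes were called in Het_PBS against WT_PBS, where 0% of all genes were called and 7.50% had an unadjusted p under 0.05. In Het_B12 against Het_PBS 0 of 6 were called, against 7.26% of all genes. In Het_B12 against WT_PBS 0 of 6 were called, against 7.33% of all genes. The test of any difference over the 3 groups also called 0 of 6, against 7.75% of all genes (5.94% in the fit without a filter, with 0 of Fos, Npas4 and Nr4a1). At an unadjusted p under 0.05 the counts of tested members were 1 (Egr1), 0 and 0 in the 3 pairs, in that order, against 7.50%, 21.7% and 21.6% of all genes. The fit without a filter called 0 of Fos, Npas4 and Nr4a1, where 0.195%, 4.67% and 4.91% of its genes were called in those pairs. In that fit Fos had an unadjusted p of 0.0143 in Het_PBS against WT_PBS and of 0.049 over the 3 groups. The first was 0.911 without WT_PBS 3. No other unadjusted p of Fos, Npas4 and Nr4a1 was under 0.05 with all libraries. The share of all genes under 0.05 was not counted for the fit without a filter. On counts simulated from these libraries the test recovered 74%, 69% and 70% of genes changed 2-fold in the 3 pairs, and 32%, 40% and 26% of genes changed 1.5-fold. The changed genes were drawn at random from all 11718 tested genes, 100 per fold. All pairs used the same gene means and spread, and the runs were not repeated, so the percentages do not rank the pairs. No other genes were changed, while 7.26% and 7.33% of all genes were called in the measured pairs with Het_B12. Recovery for the members was not simulated, and most of those tested varied more than the median gene, as given below. No gene of the 10 had groups without overlap in any pair, against 0.836%, 7.83% and 5.38% of all tested genes.

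Fos, Fosb and Junb encode the subunits of AP-1, a dimer of a Fos protein with a Jun protein that binds promoters and enhancers of later genes. Fos (GRCm38 chr12:85473890-85477273, plus strand) stood at 2.46, 0.578, 21.6, 3.75 and 2.92 CPM in WT_PBS 1 to 5. In Het_PBS 1 to 5 it was at 1.87, 3.58, 3.45, 2.48 and 0 CPM, and in Het_B12 1 to 5 at 3.64, 2.51, 5.43, 6.75 and 1.40 CPM. Apart from WT_PBS 3 the libraries of all 3 groups overlapped and none exceeded the 6.75 CPM of Het_B12 4. The 21.6 CPM of WT_PBS 3 rest on 37 reads (exact Poisson 95% interval 26.1 to 51.0), which is 26.6% of all Fos reads. The log2 fold change of Fos in Het_PBS against WT_PBS was -1.32 ± 0.539 (SE, adjusted p = 0.531). Without WT_PBS 3 it was -0.07 ± 0.648, from means of 2.28 ± 1.46 CPM in 5 heterozygotes and 2.43 ± 1.34 CPM in 4 wild types (SD). In Het_B12 against Het_PBS the log2 fold change was 0.72 ± 0.543 (adjusted p = 0.527). Against WT_PBS, Fos in Het_B12 differed by -0.60 ± 0.503 with all libraries and by 0.65 ± 0.617 without WT_PBS 3.

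Fosb (chr7:19302696-19310051, minus strand), whose product partners Jun proteins and whose truncated form builds up with repeated stimulation, did not share the pattern of Fos. It was at 8.21, 2.31, 7.60, 9.17 and 4.18 CPM in WT_PBS 1 to 5, so that WT_PBS 3 ranked the third among 15 libraries. The Het_PBS libraries held 2.81 to 6.77 CPM and the Het_B12 libraries 1.79 to 6.75 CPM. The groups overlapped, and the log2 fold changes were -0.36 ± 0.428 in Het_PBS against WT_PBS and -0.08 ± 0.431 in Het_B12 against Het_PBS (SE, adjusted p = 0.896 and 0.943). The first was -0.29 ± 0.454 without WT_PBS 3. Fosb in Het_B12 against WT_PBS differed by -0.44 ± 0.422 with all libraries and -0.38 ± 0.449 without WT_PBS 3.

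Junb (chr8:84974484-84978718, minus strand) encodes the Jun-family partner that often restrains the action of c-Jun. Its values in WT_PBS 1 to 5 were 18.5, 19.1, 41.5, 19.2 and 13.4 CPM. In Het_PBS they ran from 16.3 to 20.6 CPM and in Het_B12 from 13.9 to 19.7 CPM. The 14 libraries other than WT_PBS 3 thus lay in 1 narrow band, and WT_PBS 3 was 2.01 times the next highest library, Het_PBS 4. The log2 fold change in Het_PBS against WT_PBS was -0.27 ± 0.242 (SE, adjusted p = 0.856), and 0.07 ± 0.228 without WT_PBS 3. In Het_B12 against Het_PBS it was -0.03, with a 95% interval from -0.51 to 0.46. In Het_B12 against WT_PBS the values of Junb were -0.30 ± 0.239 with all libraries and 0.03 ± 0.225 without WT_PBS 3. The 3′ end of Junb overlaps Prdx2 on the opposite strand by 351 bases, and Prdx2 had 9571 reads against 666 of Junb, so the count of Junb is uncertain without a stated strand setting. Prdx2 itself ran from 239 to 314 CPM over the libraries, with 292 CPM in WT_PBS 3.

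The zinc finger factors Egr1, Egr2 and Egr4 bind the same GC-rich element and regulate synaptic and metabolic genes. Egr1 (chr18:34859823-34864984, plus strand), with a mean of 93.8 CPM over 15 libraries, had the highest tag level of the 10 genes. WT_PBS 1 to 5 held 82.5, 81.6, 164, 134 and 84.4 CPM. Het_PBS 1 to 5 held 73.5, 98.7, 86.7, 80.5 and 62.2 CPM, and Het_B12 1 to 5 held 133, 103, 91.7, 70.3 and 61.4 CPM. For this gene WT_PBS 4 and Het_B12 1 were also high, and WT_PBS 3 was 1.23 times the next library. Egr1 had the lowest unadjusted p of the tested members in Het_PBS against WT_PBS, with a log2 fold change of -0.43 ± 0.183 (SE, adjusted p = 0.599). Without WT_PBS 3 the value was -0.24 ± 0.175 (adjusted p = 0.808). In Het_B12 it was 0.18 ± 0.182 above Het_PBS and -0.25 ± 0.180 against WT_PBS (log2, adjusted p = 0.616 and 0.447), and the latter was -0.07 ± 0.172 without WT_PBS 3.

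Egr4 (chr6:85511121-85513589, minus strand) stood at 8.21, 12.7, 37.4, 7.51 and 9.19 CPM in WT_PBS 1 to 5. In Het_PBS 1 to 5 it was at 7.95, 11.2, 18.1, 11.6 and 2.39 CPM, and in Het_B12 the libraries lay between 9.77 and 15.05 CPM. WT_PBS 3 again lay apart, at 4.30 times the median of the other 4 wild types. In Het_PBS, library 3 was high and library 5 was the lowest of all 15. The log2 fold changes were -0.47 ± 0.375 in Het_PBS against WT_PBS, 0.25 ± 0.371 in Het_B12 against Het_PBS and -0.23 ± 0.365 in Het_B12 against WT_PBS (SE, adjusted p = 0.832, 0.761 and 0.770). Without WT_PBS 3 the first turned to 0.18 ± 0.348 and the last to 0.42 ± 0.340. Egr2 (chr10:67535475-67542188, plus strand) had 5 reads in WT_PBS, all in WT_PBS 1, 5 reads in Het_PBS and 8 in Het_B12. It lay at or under the floor in 14 of 15 libraries, with 2.05 CPM in WT_PBS 1 and at most 1.02 CPM elsewhere, and no difference was detectable at this depth.

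Npas4 and Nr4a1 are transcription factors of other families. Npas4, a basic helix-loop-helix PAS factor, is induced rather selectively by neuronal depolarisation and calcium and helps set inhibitory synapses. Npas4 (chr19:4984355-4990316, minus strand) stood at 2.05, 0, 21.6, 3.34 and 0 CPM in WT_PBS 1 to 5. The Het_PBS libraries were at 0, 0.796, 5.61, 7.02 and 0 CPM, and the Het_B12 libraries at 3.18, 1.075, 0.679, 3.58 and 3.49 CPM. It had the highest ratio of WT_PBS 3 to the median of the other 4 wild types, 21.1, although that median of 1.03 CPM is under the floor. WT_PBS 3 held 37 reads (interval 26.1 to 51.0), or 32.7% of all Npas4 reads, and 3.08 times the CPM of the next library, Het_PBS 4. The log2 fold change in Het_B12 against WT_PBS was -1.10 ± 0.573 (SE, adjusted p = 0.297) and without WT_PBS 3 it was 0.74 ± 0.750. In Het_PBS against WT_PBS the values were -0.86 ± 0.572 with all libraries and 0.96 ± 0.749 without WT_PBS 3. Against Het_PBS, Npas4 in Het_B12 differed by -0.23 ± 0.591 (adjusted p = 0.908).

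Nr4a1 (chr15:101254269-101274795, plus strand) encodes an orphan nuclear receptor of the NR4A family. It was at 3.70, 1.74, 12.9, 2.50 and 0 CPM in WT_PBS 1 to 5, with 22 reads in WT_PBS 3 (interval 13.8 to 33.3). Values in Het_PBS ran from 1.19 to 4.68 CPM and in Het_B12 from 1.36 to 8.24 CPM, the highest being Het_B12 2. WT_PBS 3 was the highest library, and the rest overlapped between groups. The log2 fold changes were -0.89 ± 0.596 in Het_PBS against WT_PBS and 0.93 ± 0.580 in Het_B12 against Het_PBS (SE, adjusted p = 0.705 and 0.414), and the first became 0.09 ± 0.690 without WT_PBS 3. In Het_B12 against WT_PBS, Nr4a1 differed by 0.05 ± 0.541 with all libraries and by 1.02 ± 0.644 without WT_PBS 3.

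Dusp1 (chr17:26505590-26562128, minus strand) encodes a phosphatase that switches off MAP kinases and so limits the induction of the other genes. WT_PBS 1 to 5 held 11.1, 6.94, 16.9, 2.92 and 7.94 CPM. Het_PBS ran from 4.18 to 9.09 CPM and Het_B12 from 5.91 to 14.7 CPM. WT_PBS 3 was 1.15 times Het_B12 2, the smallest lead among the 8 genes that were highest there. The log2 fold changes were -0.31 ± 0.378 in Het_PBS against WT_PBS and 0.34 ± 0.369 in Het_B12 against Het_PBS (SE, adjusted p = 0.898 and 0.653). The first was 0.020 ± 0.387 without WT_PBS 3. Dusp1 in Het_B12 against WT_PBS differed by 0.03 with all libraries and by 0.35 ± 0.377 without WT_PBS 3. Dusp1 overlaps Ergic1 on the opposite strand by 640 bases, and Ergic1 had 2506 reads against 300 of Dusp1. On its own strand it overlaps the annotated genes AC122252.1 by 1853 bases and AC122252.4 by 227 bases, which were not analysed here. The promoter stretch of Dusp1 shown above lies inside its annotated span. Where the overlaps lie relative to the 3′ end, from which reads were counted, was not checked. Their effect on the count of Dusp1 is therefore not known. Ergic1 ran from 37.7 to 82.2 CPM, with 75.4 CPM in WT_PBS 3.

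Arc (chr15:74669083-74672570, minus strand) encodes a protein that removes AMPA receptors from synapses and packages RNA in capsid-like shells. WT_PBS 1 to 5 held 4.93, 5.78, 26.9, 1.25 and 6.27 CPM. Het_PBS 1 to 5 held 8.42, 6.37, 16.4, 7.02 and 11.96 CPM, and Het_B12 1 to 5 held 18.6, 17.6, 14.9, 8.74 and 8.37 CPM. WT_PBS 3 was the highest library of 15, while the other 4 wild types were the lowest 4. With all libraries the means were 9.02 ± 10.2 CPM in WT_PBS, 10.0 ± 4.16 CPM in Het_PBS and 13.7 ± 4.84 CPM in Het_B12 (SD, n = 5). The log2 fold change in Het_B12 against WT_PBS was then 0.66 ± 0.420 (SE, adjusted p = 0.378).

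Without WT_PBS 3, Arc was higher in Het_B12 than in the 4 other wild types by 1.58 ± 0.390 (log2, SE, adjusted p = 0.00575), a 3.00-fold difference with a 95% interval from 1.74 to 5.18. All 5 Het_B12 libraries lay above all 4 of these wild types. WT_PBS 3 was left out after its values, Arc among them, were seen to be high. The p-value, interval and lack of overlap therefore rest on that choice, and with all libraries adjusted p was 0.378. In that fit 10.7% of all genes were called, 5.12% of all genes were called higher, and 11.4% of genes had groups without overlap. Over the alternatives the adjusted p ran from 0.00487 to 0.667, and it passed in 3 of them: without WT_PBS 3, without WT_PBS 3 and Het_PBS 5, and with limma-voom quality weights, which give a discordant library less weight (log2 1.32, adjusted p = 0.0406). The last 2 of these fits called 1390 and 1115 of all genes in this pair, against 859 in the edgeR fit with all libraries. In Het_PBS against the same 4 wild types Arc differed by 1.15 ± 0.402 (SE, adjusted p = 0.514) with no overlap, where 2.03% of genes had no overlap and 0% were called. Both comparisons share those 4 wild types. Het_B12 against Het_PBS gave 0.45 ± 0.409 with all libraries and 0.44 ± 0.330 without WT_PBS 3 (adjusted p = 0.578 and 0.471). The fit without WT_PBS 3 called 0 of 6 members in this pair, against 8.84% of all genes.

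**Figure D2:**
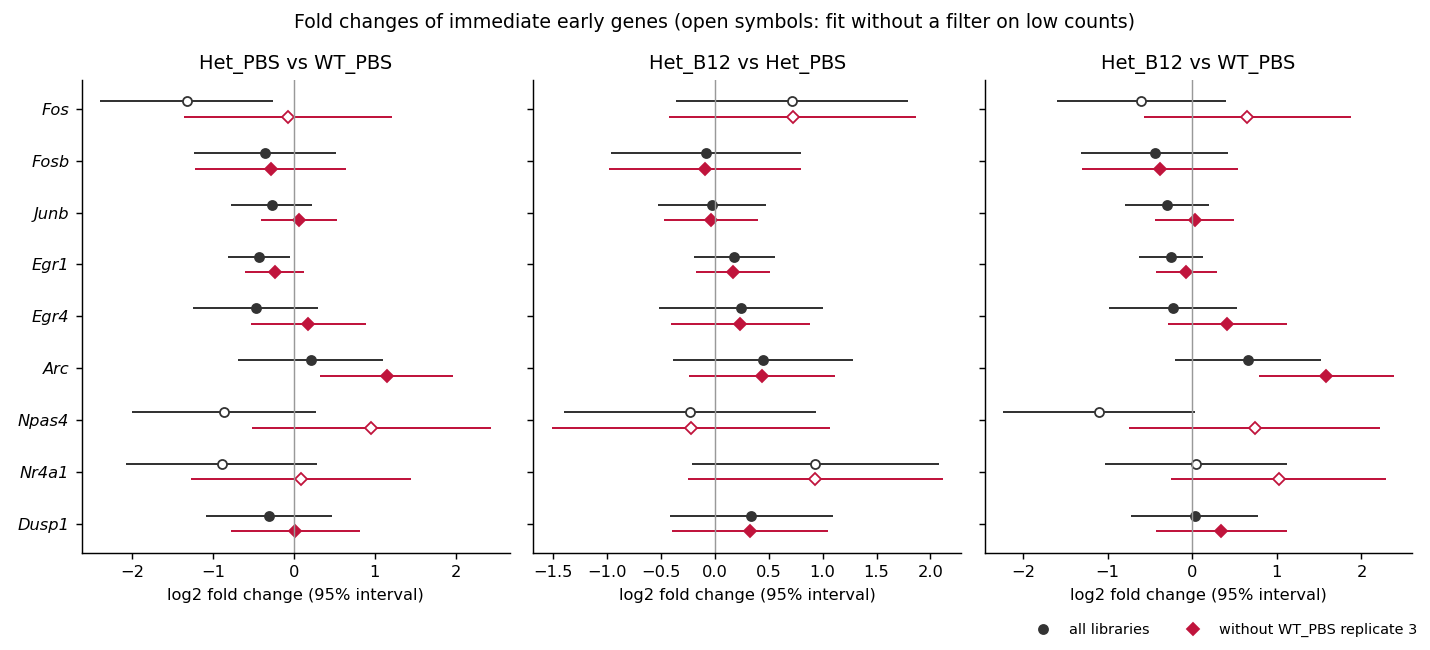
Log2 fold changes (points) with 95% intervals (lines) of 9 immediate early genes in the 3 pairs of groups, with all 15 libraries (dark circles) and without WT_PBS 3 (red diamonds); open symbols are from the fit without a filter on low counts. Leaving out WT_PBS 3 moved most genes upward where WT_PBS is the reference, Arc from 0.66 to 1.58 in Het_B12 against WT_PBS, and changed the middle panel little.

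The 6 tested genes had a median log2 fold change of -0.33 in Het_PBS against WT_PBS, 0.21 in Het_B12 against Het_PBS and -0.24 in Het_B12 against WT_PBS. The medians over all tested genes were -0.01, 0.01 and 0.01. Without WT_PBS 3 the medians of the 6 were 0.04, 0.20 and 0.19, so that both comparisons with the wild types changed sign and the one between the heterozygous groups did not. With all libraries 8 of 9 genes with a fold change lay below 0 in Het_PBS against WT_PBS, all but Arc, and without WT_PBS 3 the count was 3 of 9.

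Variation between libraries of a group differed among the 6 tested genes. With all libraries the biological coefficient of variation was 0.409 for Arc, above 96.0% of tested genes, 0.359 for Egr4 (89.9%), 0.346 for Fosb (87.7%) and 0.331 for Dusp1 (85.3%). It was 0.223 for Junb (59.9%) and 0.193 for Egr1 (48.9%), near the median of 0.196 over all genes. Without WT_PBS 3 it was 0.349 for Fosb (88.6%), 0.308 for Dusp1 (81.5%), 0.302 for Arc (80.6%), 0.278 for Egr4 (76.4%), 0.179 for Junb (45.4%) and 0.173 for Egr1 (42.8%), so that Arc was the highest of the 6 only with that library. Over the 14 other libraries the tag levels kept the order Egr1 at 88.8 CPM, Junb 17.9 CPM, Egr4 10.8 CPM, Arc 9.76 CPM, Dusp1 7.89 CPM and Fosb 5.14 CPM. Below them Fos at 2.92 CPM, Nr4a1 at 2.79 CPM and Npas4 at 2.20 CPM lay within each other's spread. Neighbours in this order overlapped in their ranges, apart from Egr1, whose lowest library, at 61.4 CPM, lay above the highest of Junb.

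The 8 genes that peaked in WT_PBS 3 did not share a second-highest library. It was Het_B12 4 for Fos, Het_PBS 4 for Junb and Npas4, WT_PBS 4 for Egr1, Het_PBS 3 for Egr4, Het_B12 1 for Arc and Het_B12 2 for Nr4a1 and Dusp1. Relative to the median of the other 4 wild types, WT_PBS 3 was 8.02 times as high for Fos, 6.07 times for Nr4a1 and 5.02 times for Arc. The ratio was 2.28 for Dusp1, 2.21 for Junb and 1.97 for Egr1. Fosb had a ratio of 1.23.

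A list of 40 other rapid early response genes, which encode further AP-1, EGR and NR4A proteins, phosphatases and mRNA regulators, shared part of the pattern of WT_PBS 3. The table held 39 of them and 27 were tested, of which 10 had their highest value of 15 libraries in WT_PBS 3 and 0 their lowest. Among all tested genes those shares were 9.76% and 9.28%. Nr4a3, a nuclear receptor related to Nr4a1, stood at 30.4 CPM in WT_PBS 3 and at 5.23 to 15.9 CPM elsewhere. Arl5b, a small GTPase of the trans-Golgi, stood at 32.7 CPM against 7.73 to 21.1 CPM. Trib1, a pseudokinase, stood at 58.4 CPM against 17.97 to 46.0 CPM, and Gadd45g, a stress and growth arrest protein, at 37.4 CPM against 14.5 to 27.7 CPM. Nr4a2 at 117 CPM and Egr3 at 73.0 CPM exceeded the next library by less, at 112 and 67.8 CPM, and the other 4 were Ier5, Btg1, Btg2 and Coq10b. Jun and Jund, the partners of the Fos proteins, ranked the fourteenth of 15 in WT_PBS 3, at 50.8 CPM and 182 CPM.

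**Figure D3:**
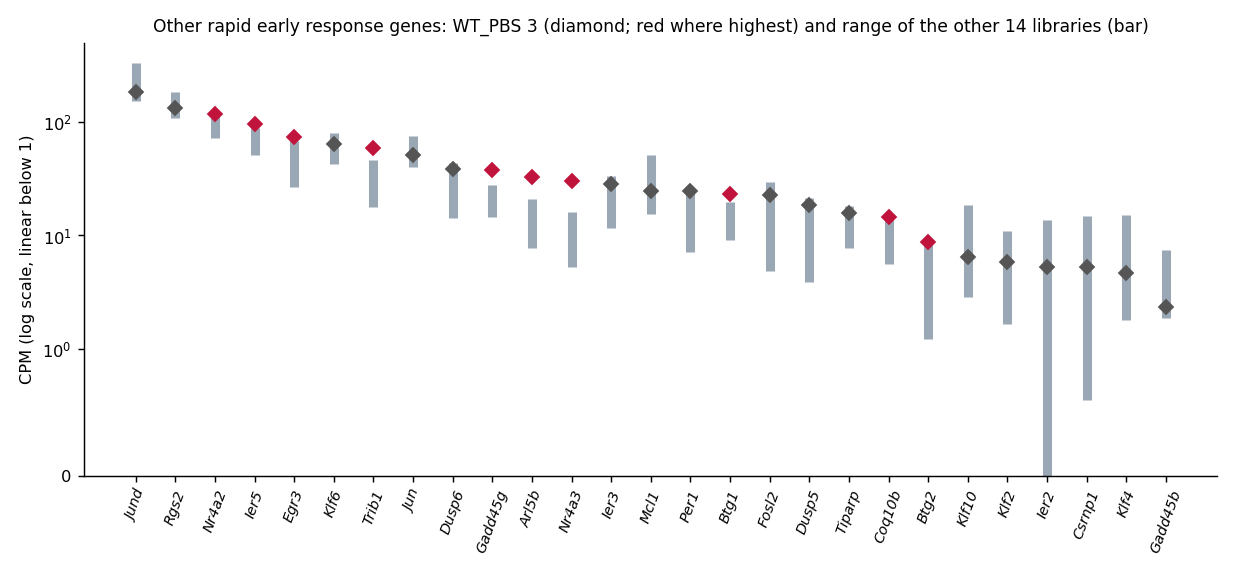
CPM (log axis, linear below 1) of 27 tested genes from the list of other rapid early response genes: diamonds are WT_PBS 3 and bars run from the lowest to the highest of the other 14 libraries. Red diamonds mark the 10 genes whose highest value is in WT_PBS 3, Nr4a3 and Arl5b among those farthest above their bars.

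Between groups and with all libraries, the same list had 0 of 27 genes called in Het_PBS against WT_PBS, 1 in Het_B12 against Het_PBS and 2 in Het_B12 against WT_PBS, all lower in Het_B12. Of all tested genes 0%, 7.26% and 7.33% were called in these pairs. Rgs2, a brake on G-protein signalling, fell from 161 ± 14.99 CPM in Het_PBS to 118 ± 8.86 CPM in Het_B12 (SD, n = 5), a log2 fold change of -0.45 ± 0.114 (SE, adjusted p = 0.0108). It was called in 15 of 15 fits that leave out 1 library, and adjusted p was 0.0502 without Het_PBS 5 and Het_B12 1 together. Against WT_PBS, at 153 ± 20.3 CPM, Rgs2 differed by -0.38 (adjusted p = 0.0352), a call kept in 8 of 15 such fits. Egr3, an EGR factor needed for muscle spindles, stood at 38.9 ± 11.5 CPM in Het_B12 and a mean of 61.0 CPM in WT_PBS (log2 -0.66 ± 0.177, adjusted p = 0.0166). That call was lost without Het_B12 5 (adjusted p = 0.0593) and without WT_PBS 1 (0.0546), and Het_B12 against Het_PBS gave -0.44 (adjusted p = 0.133). Egr3, like 8 of the 10 members, was highest in WT_PBS 3, and it was called in 13 of the 15 fits, the fit without WT_PBS 3 among them. In that fit 10.7% of all genes were called in Het_B12 against WT_PBS, and 5.12% were called higher. Of the list 1 gene was called higher, beside the 2 lower. It was Ier2, an immediate early response gene, at log2 2.10 (adjusted p = 0.0453). With all libraries the mean of Ier2 in CPM was 2.11 ± 1.98 for WT_PBS, 2.37 ± 2.48 for Het_PBS and 5.85 ± 4.56 for Het_B12 (SD, n = 5). Its log2 fold changes in Het_B12 were then 1.41 ± 0.629 against Het_PBS and 1.52 ± 0.638 against WT_PBS (SE, adjusted p = 0.177 and 0.150), and of the fits that leave out 1 library only the one without WT_PBS 3 called either.

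Genes that respond more slowly to activity, such as neuropeptides and synaptic adhesion proteins, did not peak in WT_PBS 3: 1 of 19 tested was highest there (Rheb) and 4 were lowest. None was called in Het_PBS against WT_PBS, where 0% of all genes were called. In Het_B12, 2 of 19 were called against Het_PBS, beside 7.26% of all genes. Against WT_PBS 2 were called higher and 2 lower, beside 7.33% of all genes. In Het_B12, Nrn1, a neurite growth protein, was lower than in Het_PBS by -0.51 ± 0.145 (log2, SE, adjusted p = 0.0250) and than in WT_PBS by -0.51 ± 0.146 (adjusted p = 0.0274). Scg2, a granin of dense core vesicles, was lower by -0.42 ± 0.120 and by -0.39 ± 0.120 (adjusted p = 0.0262 and 0.0397). Against WT_PBS, Vgf, another granin, was higher by 0.59 ± 0.178 and Penk, the enkephalin precursor, by 0.48 ± 0.146 (adjusted p = 0.0361 and 0.0371). Penk is also among the striatal markers given below. Each of these 6 calls was lost in 5 to 7 of the 15 fits that leave out 1 library. Without WT_PBS 3 the list had 3 called lower against Het_PBS, with Tac1, the substance P precursor, added (log2 -0.52, adjusted p = 0.0458), and 3 called higher and 2 lower against WT_PBS, with Sorcs3 added. That fit called 8.84% and 10.7% of all genes in these 2 pairs. Tac1 too is among the striatal markers, of which that fit called 2 of 10 higher and 1 lower in Het_B12 against Het_PBS.

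Of 31 tested genes for upstream receptors, kinases and transcription factors, 2 were highest in WT_PBS 3 (Mef2a and Mapk3) and 0 were called in Het_PBS against WT_PBS. In Het_B12, 2 were called higher against Het_PBS and 1 against WT_PBS, with 0 lower. Of all tested genes 7.26% and 7.33% were called in these pairs. Crebbp, the acetyltransferase that CREB recruits, stood at 285 ± 33.3 CPM in Het_B12 and 217 ± 20.9 CPM in Het_PBS (log2 0.39 ± 0.115, adjusted p = 0.0305). Grin2b, an NMDA receptor subunit, differed between the same groups by 0.35 ± 0.111 (adjusted p = 0.0437). Mef2d, a transcription factor that calcium signals release from repression, was higher in Het_B12 than in WT_PBS by 0.52 ± 0.147 (adjusted p = 0.0251). Without WT_PBS 3, Grin2b was called against WT_PBS too (log2 0.34, adjusted p = 0.0462), where 10.7% of all genes were called. Leaving out 1 library ended the call of Crebbp in 6 of 15 fits, of Mef2d in 6 and of Grin2b in 8. Srf, the serum response factor, did not pass in Het_PBS against WT_PBS, at 84.8 ± 5.09 CPM and 67.2 ± 12.7 CPM (adjusted p = 0.599).

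Markers of cell types and of RNA composition in WT_PBS 3 are given here because they moved with the pattern in part. It was the lowest wild type for the summed CPM of 12 astrocyte markers (6724, against 8390 to 8991 in the other 4), of 12 microglia markers (470, against 674 to 802) and of 12 oligodendrocyte markers (4173, against 4871 to 8943). The 12 erythroid and leukocyte markers summed to 498 CPM, against 741 to 1339 CPM. Of 12 cerebellar neuron markers 4 were highest in WT_PBS 3 (Gabra6, Cbln1, Cbln3 and Grm4), with a sum of 1679 CPM against 1530 to 1659 CPM. Pan-neuronal markers (8659 CPM), cortical and hippocampal excitatory markers (10950), striatal markers (671), endothelial markers (123) and choroid plexus markers (981) lay within the range of the other wild types, and 0 of these were highest there. No marker of these lists was at 0 in all libraries. WT_PBS 3 had 10.7% of its reads on Gm42418, an RNA that overlaps ribosomal repeats (10.6% to 14.9% in WT_PBS), and 6.49% on mitochondrial genes (6.32% to 9.58%). It was also the shallowest wild-type library, at 1707033 counts against 1866380 to 2593316 in the other 4. The part of these differences in the levels of the immediate early genes was not tested. In bulk RNA fewer cells of a type and less RNA per cell cannot be told apart.

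**Figure D4:**
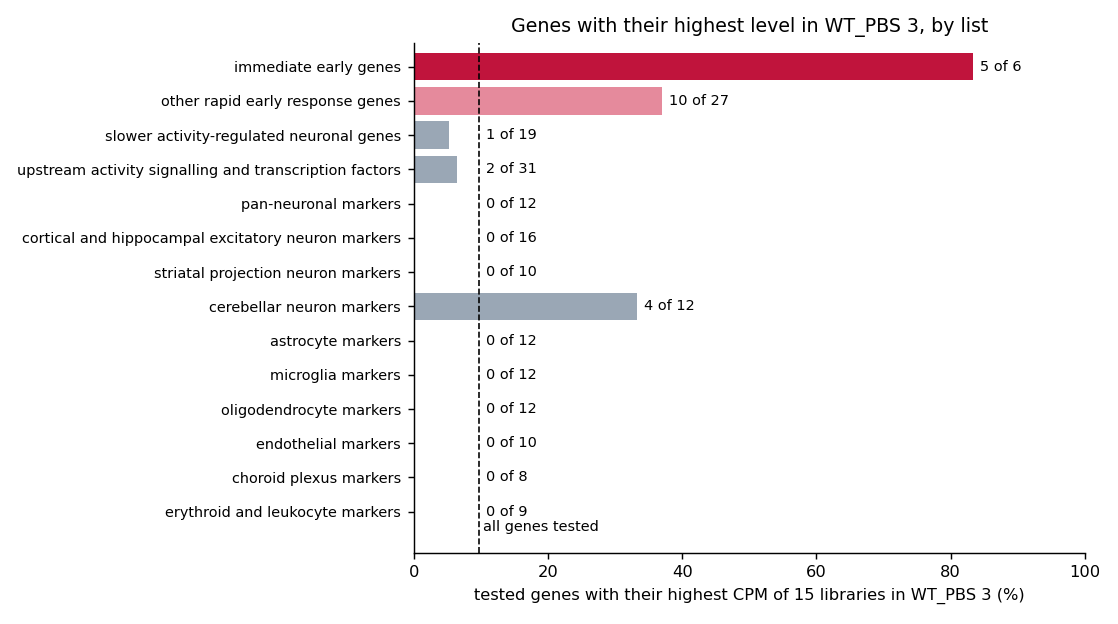
Share of tested genes (%) in each of 14 lists whose highest CPM of 15 libraries was in WT_PBS 3, with the count beside each bar; the dashed line is the share over all tested genes, 9.76%. The immediate early genes (5 of 6 tested) and the other rapid early response genes (10 of 27) have the longest bars, followed by cerebellar neuron markers (4 of 12).

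Markers also differed between groups, beside the higher Arc of Het_B12 without WT_PBS 3. That library was left out after its values were seen, and with all libraries Arc did not pass against WT_PBS (edgeR, adjusted p = 0.378). In Het_PBS against WT_PBS 0 genes of the 14 lists were called. Of all tested genes 0% were called in that pair and 7.26% in Het_B12 against Het_PBS. In Het_B12 against WT_PBS the share was 7.33% with all libraries and 10.7% without WT_PBS 3. Against WT_PBS with all libraries, 8 of 12 astrocyte, 6 of 12 microglia, 2 of 12 oligodendrocyte and 2 of 9 erythroid and leukocyte markers were called lower in Het_B12. In the same comparison 6 of 10 endothelial, 3 of 10 striatal and 1 of 16 cortical and hippocampal markers were called higher, 1 of 12 cerebellar markers lower, and 0 of 12 pan-neuronal and 0 of 8 choroid plexus markers in either direction. Without WT_PBS 3 the counts lower than in WT_PBS were 9 astrocyte, 7 microglia, 3 oligodendrocyte, 3 erythroid and leukocyte, 1 cerebellar and 1 pan-neuronal. Those higher were 6 endothelial, 5 striatal, 3 cerebellar and 1 cortical and hippocampal, with 0 choroid plexus. Against Het_PBS with all libraries the counts lower in Het_B12 were 9 astrocyte, 5 microglia, 3 oligodendrocyte, 8 erythroid and leukocyte and 1 cerebellar. The counts higher were 6 endothelial, 6 cerebellar, 2 striatal, 1 pan-neuronal and 1 cortical and hippocampal, with 0 choroid plexus. The sums were 5295 to 6213 CPM in Het_B12 and 6724 to 8991 CPM in WT_PBS for astrocyte markers, and 216 to 306 CPM and 110 to 159 CPM for endothelial markers. Gm42418 took 3.31% to 6.28% of reads in Het_B12, 6.47% to 10.3% in Het_PBS and 10.6% to 14.9% in WT_PBS. The part of these differences in the level of Arc was not tested. Pan-neuronal sums overlapped, at 8359 to 9259 CPM in Het_B12 and 8289 to 9949 CPM in WT_PBS.

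Over the 15 libraries the genes whose log2 CPM lay nearest to the mean scaled level of the 6 tested members were Slc20a1, Plec, Crebzf, Kcnmb4 and C2cd3. Pearson's r was 0.88 for Slc20a1, a phosphate transporter (Spearman's rho 0.78), and 0.80 to 0.81 for the others. Without WT_PBS 3 and Het_PBS 5, the libraries farthest from the median, r was 0.77 for Slc20a1 and 0.50 for Kcnmb4. After group means were subtracted the nearest were Hdac7 (r 0.91), Gramd1b (0.88), Xab2 (0.88), Slc20a1 (0.87) and A830036E02Rik (0.87). Hdac7, a class IIa histone deacetylase, had r 0.86 without WT_PBS 3 and Het_PBS 3. These genes were picked as the closest of all genes tested, and the libraries share depth and composition, so the values are a description.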

How the data were processed

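For 15 brain libraries the authors deposited raw counts of reads on each gene; per the labels' protocols, libraries were QuantSeq 3′ libraries. The submitters' processing notes name STAR, HTSeq, edgeR and the build mm10. Their versions, the annotation and the strand setting are not stated there. Groups and replicate numbers come from the sample titles. Coordinates are from GENCODE M21 (GRCm38), which matched 30271 of 30386 gene identifiers (99.62%).

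Counts were filtered with filterByExpr, scaled by TMM and tested with edgeR 4.0.16 in R 4.3.3, with 1 mean per group over all 15 libraries, no covariates and Benjamini-Hochberg adjustment over all genes tested. Fold changes are log2. Simulated counts gave false calls of 2.75% to 4.95%. Alternatives used DESeq2 1.42.0, limma 3.58.1, other filters, scalings and libraries; fits without a filter that leave out libraries were added after seeing the data.

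The 10 genes and all lists were chosen with earlier results of these data known. Genes outside the 10 were named as up to 4 of each list with the smallest p per pair of groups, the 5 most like the members by correlation before and after removing group means, and, chosen after their values were seen, genes highest in WT_PBS 3, Jun and Jund, genes called only without WT_PBS 3 and genes that overlap a member. No column was left unmapped. Promoter sequences are from RefSeq.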

Additional observations from a re-analysis of the deposited data

Results flagged for a closer look

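The 10 genes were checked for a library far from the others in each of the 3 groups, 30 checks in all, by comparing the gap between the most extreme library and its neighbour with the range of the group. A gap above 0.71 of the range counts as apart for 5 libraries. For normally distributed values chance alone gives about 1 in 20, a rate not checked for CPM with low counts and zeros. The checks are therefore a description with no test. In 7 of the 30 the highest library stood apart, all in WT_PBS, and in 6 of them it was WT_PBS 3. These were Fos at 21.6 CPM (gap 0.849 of the range), Npas4 at 21.6 CPM (0.846), Egr4 at 37.4 CPM (0.825), Arc at 26.9 CPM (0.804), Junb at 41.5 CPM (0.793) and Nr4a1 at 12.9 CPM (0.713). The other was Egr2 in WT_PBS 1, at 2.05 CPM from 5 reads with the other 4 wild types at 0. The 6 checks of WT_PBS 3 are on the same library, which was singled out on these same values, and are not independent of each other.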

How the results depend on the processing

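The immediate early genes kept a count of 0 called in every comparison and alternative with 3 exceptions, each of them Arc in Het_B12 against WT_PBS. It was called with limma-voom quality weights, without WT_PBS 3, and without WT_PBS 3 and Het_PBS 5. These fits called 1115, 1268 and 1390 of all genes in that pair, against 859 in the edgeR fit with all libraries. The last 2 fits also called 1 member over the 3 groups. There they called 1283 and 1330 of all genes, against 908 with all libraries. The 2 fits without WT_PBS 3 also left 1 member (Arc) without overlap in Het_PBS against WT_PBS and 1 in Het_B12 against WT_PBS. Without WT_PBS 3 alone, 2.03% and 11.4% of all tested genes had no overlap in these pairs. In Het_B12 against WT_PBS, leaving out WT_PBS 1 left 1 (Egr2), with 0 reads in the other wild types and 1 to 3 in Het_B12. Those reads are at or under the floor of 3, so no difference of Egr2 was detectable. The share of all genes without overlap was not counted for that fit. Leaving out 1 library gave at most 1 member called and at most 1 without overlap in each comparison. Of 615 alternative fold changes of the members, 569 kept direction and side of the threshold, 43 changed sign and 3 passed the threshold; 9 of 27 fold changes never changed sign.

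Without WT_PBS 3 and Het_PBS 5 the signs turned, in Het_PBS against WT_PBS, for Fos (log2 0.20), Junb (0.043), Egr4 (0.40), Npas4 (1.24), Nr4a1 (0.054) and Dusp1 (0.14), and in Het_B12 against WT_PBS for Fos (0.65), Junb (0.024), Egr4 (0.41) and Npas4 (0.74). Without Het_PBS 5 and Het_B12 1, Egr1 (-0.057) and Egr4 (-0.048) turned in Het_B12 against Het_PBS. In Het_B12 against WT_PBS, Egr4 turned with limma-voom (0.085) and with quality weights (0.18), and Nr4a1 with DESeq2 (-0.0073). The cause was not tested.

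Leaving out each library in turn gave these ranges for the fold changes that crossed 0. In Het_PBS against WT_PBS they were -0.088 to 1.15 for Arc, -0.55 to 0.020 for Dusp1, -0.77 to 0.18 for Egr4, -0.41 to 0.067 for Junb, -1.58 to 0.96 for Npas4 and -1.39 to 0.091 for Nr4a1. In Het_B12 against WT_PBS they were -0.21 to 0.35 for Dusp1, -0.40 to 0.42 for Egr4, -0.88 to 0.65 for Fos, -0.44 to 0.030 for Junb, -1.44 to 0.74 for Npas4 and -0.37 to 1.02 for Nr4a1. In Het_B12 against Het_PBS they were -0.25 to 0.13 for Fosb, -0.065 to 0.053 for Junb and -0.54 to 0.48 for Npas4. The highest value was the fit without WT_PBS 3 in every one of these ranges against WT_PBS.

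The number of all genes called moved from 908 over the 3 groups to 556 to 1283 with 1 library left out (lowest without Het_B12 1), from 851 to 549 to 1050 in Het_B12 against Het_PBS (lowest without Het_B12 1), from 859 to 449 to 1268 in Het_B12 against WT_PBS (449 without WT_PBS 5, 477 without WT_PBS 1, 513 without Het_B12 2, 515 without Het_B12 1) and from 0 to 0 to 14 in Het_PBS against WT_PBS (14 without WT_PBS 2). Without Het_PBS 5 and Het_B12 1 the counts were 528 over the 3 groups, 437 in Het_B12 against Het_PBS and 2 in Het_PBS against WT_PBS. Without WT_PBS 3 and Het_PBS 5 they were 1390 in Het_B12 against WT_PBS and 1 in Het_PBS against WT_PBS, where the fit without a filter called 40.

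Same-numbered libraries of different groups did not deviate together: 1 of 15 pairs had a correlation above 0.1 (range -0.093 to 0.106), and 5 of 15 libraries correlated best with their own number. With the replicate number as a block 0 members were called in each comparison, and 830 and 800 of all genes in Het_B12 against Het_PBS and against WT_PBS. Depth limits Egr2, Fos, Npas4 and Nr4a1 most, which had 18, 139, 113 and 119 reads over 15 libraries.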
